A study of Mus musculus with 20 samples.

Results

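The genes described here are the nuclear-encoded subunits of the oxidative phosphorylation complexes, measured by RNA sequencing in mouse heart ventricles. They were taken by symbol: every row named as a complex I subunit (Nduf followed by a, b, c, s or v and a number, or Ndufab1), Cox4 to Cox8, Uqcr, Sdha to Sdhd, or Atp5, with a mean value of at least 100 over 20 libraries. That gave 82 of the 21705 genes in the table, from 85 rows that match by name. By symbol, 37 were counted with complex I, 4 with complex II, 8 with complex III, 15 with complex IV and 15 with complex V. The other 3 match by name without encoding a subunit. Ndufa4 was counted with complex I by its symbol, although its protein is now placed in complex IV. Cyc1, which encodes cytochrome c1 of complex III, does not match the symbol rule and is not among the 82. Transcripts of the mitochondrial genome were not analysed here.

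All hearts came from male C57Bl/J6 mice given tamoxifen at 75 mg/kg on 4 days from 6 to 8 weeks of age, and were taken 2 weeks later. The 4 groups of 5 libraries were Acsl1H-/- with rapamycin, Acsl1flox/flox with rapamycin, Acsl1H-/- with vehicle and Acsl1flox/flox with vehicle; Acsl1H-/- hearts are called knockout and Acsl1flox/flox littermates control. Rapamycin, which blocks the growth-regulating kinase mTOR, was given at 1 mg/kg each day for 2 weeks, and the other groups received vehicle over the same time. Both genotypes carry the floxed allele and both received tamoxifen, while the Cre driver that removes Acsl1 is not named in the labels, so an effect of the Cre and the loss of Acsl1 cannot be told apart. The design text gives 5 biological replicates per condition, and p-values measure the spread between these libraries.

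Acsl1 activates long-chain fatty acids for oxidation, the main fuel of the adult heart. Electrons from fuel oxidation enter the respiratory chain at complex I, at complex II or, from fatty acids, also directly at ubiquinone, and pass through complex III to complex IV, which reduces oxygen, and complex V makes ATP from the proton gradient built on the way. Heart ventricle is among the tissues richest in these complexes, and several complex IV subunits have a form found mainly in heart and skeletal muscle beside a widespread one. Transcription of many nuclear subunit genes is known to depend on NRF1, GABP, YY1 and the estrogen-related receptors, with the coactivators of the PGC-1 family.

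The promoters of 5 genes are shown because these genes stand at the ends of the results below: Sdha, which had the most positive change of the set in knockout hearts under vehicle; Ndufb4 and Atp5o, among the most negative; and Cox8b and Cox8a, the muscle and the widespread form of one complex IV subunit. Each sequence runs 5′ to 3′ on the gene's strand from 250 bases before to 50 bases after the start given by RefSeq on GRCm38.p6. Capitals mark every match, on either strand, to the NRF1 motif (GCGCA and GCGC with any single base between them), the estrogen-related receptor half-site AAGGTCA, the GABP (ETS) motif CCGGAAG or the YY1 motif AAGATGGC. The windows are chr13:74350191-74350490 (minus strand) for Sdha, chr16:37654319-37654618 (minus) for Ndufb4, chr16:91931581-91931880 (minus) for Atp5o, chr7:140900397-140900696 (minus) for Cox8b and chr19:7217567-7217866 (minus) for Cox8a.
Sdha: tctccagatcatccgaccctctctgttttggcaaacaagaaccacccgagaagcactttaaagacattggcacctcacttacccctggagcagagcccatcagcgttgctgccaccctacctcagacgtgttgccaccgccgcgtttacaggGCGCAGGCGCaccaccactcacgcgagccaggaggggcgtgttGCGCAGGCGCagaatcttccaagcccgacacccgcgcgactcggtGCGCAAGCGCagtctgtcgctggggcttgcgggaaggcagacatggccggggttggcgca
Ndufb4: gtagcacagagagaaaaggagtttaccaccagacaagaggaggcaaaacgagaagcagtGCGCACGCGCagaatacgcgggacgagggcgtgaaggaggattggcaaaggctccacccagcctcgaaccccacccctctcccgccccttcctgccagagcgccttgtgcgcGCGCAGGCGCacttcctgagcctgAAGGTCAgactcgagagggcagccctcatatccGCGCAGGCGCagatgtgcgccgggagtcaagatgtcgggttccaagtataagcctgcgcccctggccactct
Atp5o: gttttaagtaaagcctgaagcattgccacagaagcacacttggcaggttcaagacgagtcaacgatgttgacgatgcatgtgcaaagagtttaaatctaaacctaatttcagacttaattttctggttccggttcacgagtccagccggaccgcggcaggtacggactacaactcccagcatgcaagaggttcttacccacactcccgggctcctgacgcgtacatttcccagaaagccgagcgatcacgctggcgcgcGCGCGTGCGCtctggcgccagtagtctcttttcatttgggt
Cox8b: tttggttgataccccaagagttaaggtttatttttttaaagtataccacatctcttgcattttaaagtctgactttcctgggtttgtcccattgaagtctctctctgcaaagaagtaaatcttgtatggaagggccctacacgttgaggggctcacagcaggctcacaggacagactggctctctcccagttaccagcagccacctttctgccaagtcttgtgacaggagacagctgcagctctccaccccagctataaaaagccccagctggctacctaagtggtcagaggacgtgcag
Cox8a: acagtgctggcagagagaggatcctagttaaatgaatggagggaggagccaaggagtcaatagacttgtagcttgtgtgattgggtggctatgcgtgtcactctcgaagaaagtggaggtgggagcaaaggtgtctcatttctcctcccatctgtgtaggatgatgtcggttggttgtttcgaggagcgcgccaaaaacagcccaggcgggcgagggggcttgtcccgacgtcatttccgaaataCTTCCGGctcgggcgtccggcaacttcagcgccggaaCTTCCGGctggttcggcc

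The Sdha window held 3 NRF1 matches, and Ndufb4 also held 3 NRF1 matches with 1 receptor half-site between them. Atp5o held 1 NRF1 match, Cox8a held 2 GABP matches and Cox8b held none of the 4 motifs in this window. None of these matches overlapped another. A promoter entry was found for 68 of the 82 genes. Of those 68 genes, 17 (25.0%) held the NRF1 motif, against 5.19% of all genes with a promoter entry, and 16 (23.5%) held the GABP motif, against 9.93%. The YY1 motif was in 11 (16.2%), against 3.19%, and the receptor half-site in 8 (11.8%), against 5.38%. The genes with at least 1 of the 4 motifs, 39 of 68, had a median log2 change of -0.46 in knockout hearts under vehicle and the 29 without had -0.48, which differ by little.

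Values are the authors' upper-quartile-normalized RSEM estimates, in which the upper quartile of the expressed genes of each library lies near 1000. The libraries held the equivalent of 11.5 to 21.1 M reads, as implied by the smallest steps between low values. Acsl1 lay between 631 and 1950 in the knockout libraries under rapamycin and between 740.5 and 1682 in those under vehicle, against 10518 to 16661 in control libraries under rapamycin and 6373 to 13431 under vehicle, so every library followed its genotype label. Of 8 ventricular cardiomyocyte markers none was at 0 in any library. For knockout against control under vehicle they moved in both directions. The log2 changes were 0.73 for Myh6, 0.69 for Ryr2, 0.39 for Tnnt2 and 0.22 for Actn2. They were -0.21 for Actc1, -0.50 for Myl3, -0.57 for Tnni3 and -0.63 for Myl2. None of these 8 passed an adjusted p of 0.05. The summed level of 7 fibroblast markers ran from 82346 to 139958 in knockout hearts under vehicle, above all control hearts under vehicle (58478 to 76016). Under rapamycin it ran from 88371 to 142214 in knockout hearts, above control hearts (68516 to 86783). Gsn and Dcn, which averaged 64086 and 22389 in knockout hearts under vehicle, made up most of these sums. Under rapamycin the fitted log2 changes were 0.55 for Pdgfra, 0.50 for Gsn, 0.42 for Dcn and 0.28 for Tcf21. They were only 0.11 for Col1a2, 0.04 for Col1a1 and -0.06 for Col3a1. None of the 7 passed an adjusted p of 0.05 for knockout against control in either arm. The summed level of the 5 erythroid markers found in the table ran from 13540 to 46566 in knockout hearts under vehicle, against 60620 to 155151 in control hearts under vehicle, again without overlap. The 6 atrial markers together reached 4251 to 66950 in knockout hearts under vehicle, against 1420 to 6129 in control hearts under vehicle. Under rapamycin they reached 8998 to 62342 in knockout and 1710 to 35736 in control hearts, and the groups overlapped in both arms. The part of these shifts in the results below was not tested, and in bulk tissue fewer cells of a type and less RNA per cell cannot be told apart.

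The subunits as a set took between 6.08% and 10.9% of the total value of a library, with a median of 7.52%. Complex V subunits made up the greatest part, 3.11% of the library on average, ahead of complex I (1.95%), complex IV (1.38%), complex III (0.788%) and complex II (0.484%). Atp5b and Atp5a1, the catalytic and regulatory subunits of the F1 head of ATP synthase, had the highest values, 194308 and 171064 on average over 20 libraries. Levels of different genes were compared per kilobase of transcript, from transcripts with a RefSeq match where there were any. This was done for the 75 of 82 genes whose protein-coding transcripts of this kind differ in length by at most 1.5 times. On that scale Atp5b stood first at 101413, followed by Atp5g3, a gene for the c ring of ATP synthase (100715), Cox4i1, the widespread form of subunit 4 (95952), Cox6a2 (90393), Cox7a1 (76503) and Atp5a1 (69229). The median per kilobase was 33468 in complex V, 28700.1 in complex IV, 23412 in complex III, 14638 in complex I and 14224 in complex II. The median transcript length was 645 nucleotides in complex IV and 2065.5 in complex II. These levels average 20 libraries that differ in how high long and short transcripts stand, as described below. The order of genes and complexes of unlike length within single groups was not examined.

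**Figure D1:**
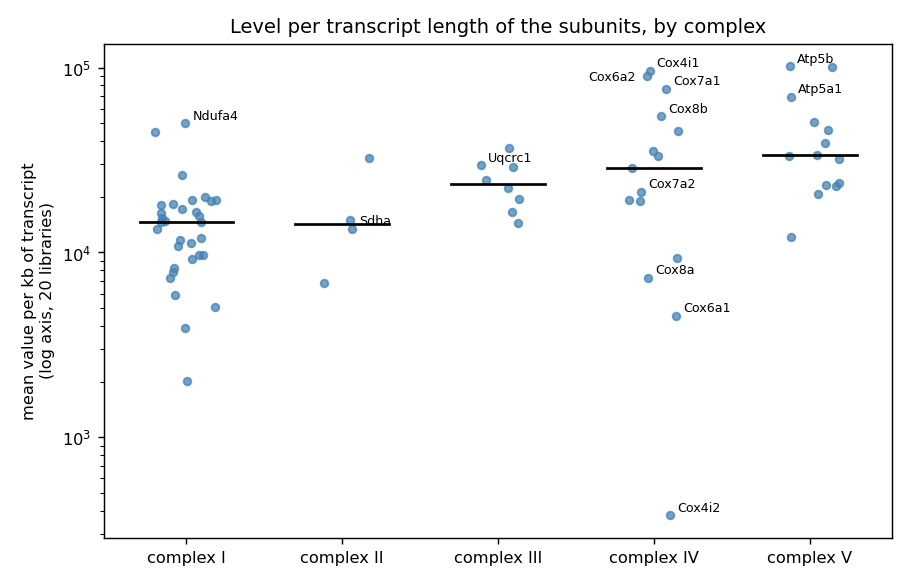
Mean value per kilobase of transcript over 20 libraries (log axis) for the subunits of each complex whose transcript lengths agree; each point is a gene and the bar is the median of the complex. Complex V has the highest median (33468) and complex II the lowest (14224), and within complex IV the genes span from 378 for Cox4i2 to 95952 for Cox4i1.

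The muscle forms of complex IV subunits stood above their widespread partners in every library. Cox8b, the muscle form of subunit 8, reached 54494 per kilobase and Cox8a 7307, and Cox6a2 reached 90393 against 4549 for Cox6a1. Cox4i2, the form of subunit 4 known from lung and from hypoxia, was the lowest subunit at 378 per kilobase, below Ndufab1, the acyl carrier protein of complex I (2018), and Ndufs4, a late-joining subunit of its matrix arm (3927). It was also the gene just inside the limit on the mean, with 275, followed by Atp5s with 533. The 3 rows just outside were Cox6b2 (43.2), Cox7b2 (1.98) and Cox8c (0 in all 20 libraries), forms known from testis. Of the 3 genes that match by name alone, Atp5s averaged 533, Cox4nb, the neighbour of Cox4i1 on the chromosome, averaged 553, and Atp5sl averaged 1219.9.

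Most subunit genes moved together from library to library. For each library the median deviation of the 82 genes from their own 20-library means was taken on the log2 scale. It was 0.02, -0.34, 0.02, 0.05 and -0.40 in knockout hearts under rapamycin, and 0.13, 0.32, -0.07, -0.49 and 0.04 in control hearts under rapamycin. It was -0.04, -0.57, -0.42, -0.18 and 0.31 in knockout hearts under vehicle, and 0.70, 0.06, 0.90, 0.09 and -0.17 in control hearts under vehicle. Control vehicle libraries 1 and 3 stood highest of all 20, and knockout vehicle library 5 stood above 3 of the 5 control vehicle libraries. Leaving libraries 1 and 3 out, as in fits below, thus lowers the control vehicle mean of this measure by construction. The groups overlapped in each pair. The correlation of a gene with the median of the other members was above 0.9 for 66 of 82 genes, with a median of 0.97 over 20 libraries that share scaling and depth. Only 4 genes had a negative one: Sdha (-0.92), Ndufs1 (-0.88), Ndufa10 (-0.67) and Cox4nb (-0.21).

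That common movement ran against how high long transcripts stood over short ones in each library. A score was computed per library from genes outside the set with a mean of at least 100: the median deviation of the 2023 genes with the longest transcripts (the top 20%) minus that of the 2027 with the shortest. A high score thus marks a library in which long transcripts stand high and short ones low. Over 20 libraries the median deviation of the subunits had a Pearson r of -0.98 and a Spearman rho of -0.97 with the score. Without the 2 libraries farthest out on the score, control vehicle 1 and 3, r was -0.96 and rho -0.95 over 18 libraries. Both measures come from the same libraries and the same scaling, so they are a description of these libraries. The score was 0.14, 0.64, 0.55, 0.35 and -0.49 in knockout hearts under vehicle, against -1.15, 0.01, -1.34, -0.12 and 0.28 in control hearts under vehicle. Knockout vehicle library 5, the only one of its group with a score below 0, was also the only one with the subunits above their mean.

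**Figure D2:**
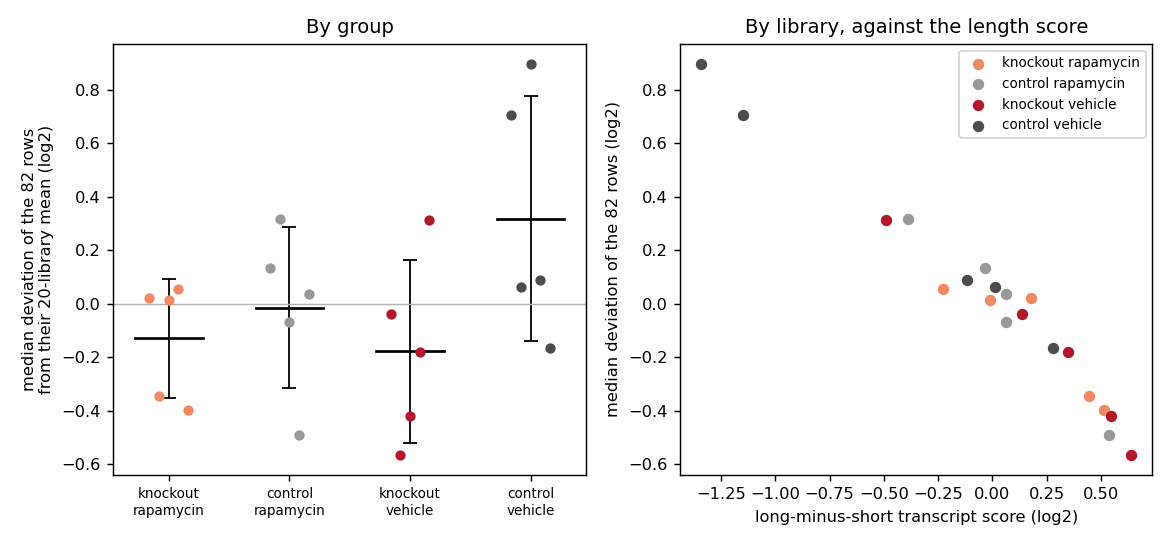
Left, the median deviation of the 82 genes from their 20-library means (log2) in each library, by group, with group mean and SD (n = 5 each); right, the same value against the long-minus-short transcript score of the library (log2). Control vehicle libraries 1 and 3 sit at 0.70 and 0.90 with scores of -1.15 and -1.34, and the 20 libraries lie along a falling line (r = -0.98).

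The loss of Acsl1 under vehicle was the first comparison. Most subunits had lower values in knockout hearts, with a median log2 change of -0.47 over the 82 genes, against a median of 0.07 over all 13548 genes tested. The fitted change was below 0 for 76 of 82 genes, where 43.5% of all tested genes were below 0. None of the 82 passed an adjusted p of 0.05 (limma with Benjamini-Hochberg adjustment over 13548 genes), and 0.244% of all tested genes did. At an unadjusted p under 0.05, 50 of the 82 were lower in knockout hearts, where 12.1% of all tested genes were, and 2 were higher, where 19.8% were. The 50 share the library movement described above, so they are not 50 separate results.

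By complex, the median change was -0.50 for the 37 genes of complex I, -0.36 for the 4 of complex II, -0.40 for the 8 of complex III, -0.59 for the 15 of complex IV and -0.46 for the 15 of complex V. All 38 genes of complexes III, IV and V had a fitted change below 0. The short members stood lower than the long ones: the 51 genes with transcripts of at most 1 kb had a median of -0.53 and the 31 longer ones -0.36. Gene by gene the relation was looser, with a Spearman rho of 0.37 between length and change over the 82 members. Among genes outside the set with a mean of at least 100, the shortest 20% had a median change of -0.28 and the longest 20% a median of 0.41 in the same comparison.

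Cox5b, a nuclear subunit of complex IV, had the smallest adjusted p of the set. It was at 14135, 9112, 10131, 13501 and 18561 in knockout hearts under vehicle, against 30469, 19027, 29984, 15998 and 16833 in control hearts under vehicle. Its change was -0.77 (SE 0.21, adjusted p = 0.0847). Knockout library 5 lay inside the control range, and control libraries 1 and 3 lay far above the other 3. Without those 2 control libraries the change was -0.44 (SE 0.19, adjusted p = 0.712), and the direction remained.

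In complex V, Atp5o encodes the subunit of the stalk that joins the catalytic head to the membrane part. It was at 33599, 19254, 22068, 30086 and 43969 in knockout hearts under vehicle, against 68466, 41913, 80339, 37814 and 32415 in control hearts under vehicle, with overlap between the groups. Its change, -0.78 (SE 0.27, adjusted p = 0.102), was the most negative of the set. Atp5e, the epsilon subunit of the same enzyme, had a change of -0.77 (SE 0.28, adjusted p = 0.106), with 15992 ± 5616 in knockout hearts and 27789.8 ± 11269 in control hearts (SD, n = 5 each). The large subunits of the head had smaller changes: Atp5a1 had a change of -0.05 (SE 0.09, adjusted p = 0.707) and Atp5b one of -0.09 (SE 0.10, adjusted p = 0.536). Atp5b was at 184491, 182486, 203954, 210506 and 181334 in knockout hearts, against 220433, 197673, 226473, 189726 and 189388 in control hearts.

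Sdha, the flavoprotein subunit of complex II that oxidises succinate, went the other way. It was at 39406, 51002, 55823, 49308 and 28140.1 in knockout hearts under vehicle, against 19777, 37985, 22327, 35039 and 42856 in control hearts under vehicle. Control libraries 1 and 3 were the lowest of all 10 here, and knockout library 5 lay among the control libraries. The change was 0.53 (SE 0.22, adjusted p = 0.12). Sdhb, the iron-sulfur subunit of the same complex, had 35683, 25904, 28239, 34343 and 44972 in knockout hearts, against 57324, 42040.2, 63311, 37167 and 32514 in control hearts, and a change of -0.44 (SE 0.19, adjusted p = 0.13). The transcript of Sdha measures 2900 nucleotides and that of Sdhb 1142. A still longer one, that of Ndufab1 in complex I with 3479 nucleotides, had a change of -0.42 (SE 0.18, adjusted p = 0.122). Without control vehicle libraries 1 and 3 the change of Sdha was 0.18 (SE 0.20, adjusted p = 0.865) and that of Sdhb -0.16 (SE 0.18, adjusted p = 0.869).

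In complex I, Ndufs1 carries several of the iron-sulfur clusters of the matrix arm, and Ndufv1 binds NADH and the flavin. Ndufs1 was at 15664, 23087, 24119, 19328 and 11512 in knockout hearts under vehicle, against 10199, 15066, 10361, 13888 and 16361 in control hearts under vehicle, a change of 0.48 (SE 0.20, adjusted p = 0.118). Ndufv1 had a change of -0.32 (SE 0.11, adjusted p = 0.106), with 21794 ± 1292 in knockout hearts and 27532 ± 5675 in control hearts (SD, n = 5 each). Groups overlapped for both. A further 2 complex I genes had a fitted change above 0, Ndufa10 with 0.13 (SE 0.10, adjusted p = 0.368) and Ndufa5 with 0.09 (SE 0.09, adjusted p = 0.51). Ndufb4, a membrane-arm subunit whose promoter is shown above, had a change of -0.71 (SE 0.29, adjusted p = 0.121).

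In complex III, Uqcrc1, a core protein of the matrix side, had 45751 ± 5228 in knockout hearts under vehicle and 59716 ± 13262 in control hearts under vehicle (SD, n = 5 each), a change of -0.36 (SE 0.13, adjusted p = 0.107). Uqcrfs1, the Rieske iron-sulfur protein, had a change of -0.25 (SE 0.13, adjusted p = 0.177). In complex IV, Cox4i1 had 59191 ± 14848 in knockout hearts and 94959.6 ± 35589.9 in control hearts (SD, n = 5 each), a change of -0.64 (SE 0.24, adjusted p = 0.106).

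**Figure D3:**
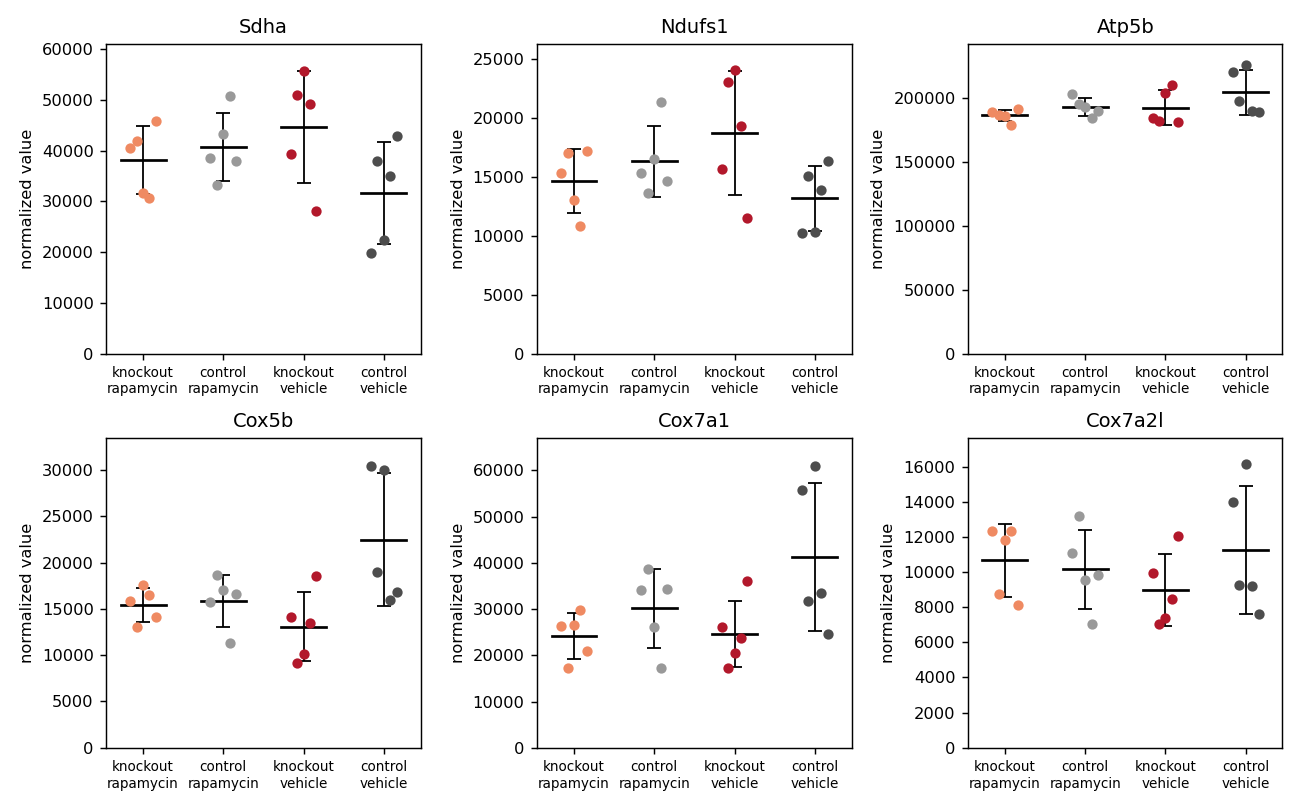
Normalized value in each library of 6 subunits, by group, with group mean and SD (n = 5 each); axes start at 0. Control vehicle libraries 1 and 3 are the lowest of their group for Sdha and Ndufs1 and the highest for Cox5b, Cox7a1 and Cox7a2l, while Atp5b varies little, from 179421 to 226473 over the 20 libraries.

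Single libraries decided how many subunits passed the test. Without control vehicle library 5, in which the subunits stood lowest in that group, 44 of 82 genes passed, 43 lower and 1 (Sdha) higher, in a fit where 22.8% of all tested genes passed. Without knockout vehicle library 5, 41 passed, 39 lower and 2 (Sdha and Ndufs1) higher, where 18.9% of all passed. Without control vehicle library 4, only Cox5b passed, where 2.53% of all did. Without both control vehicle libraries 1 and 3, none passed, where 0.0295% of all did. In that fit 1 gene had an unadjusted p under 0.05 (Cox5b), where 6.75% of all did. The median change over the 82 genes was -0.16, while 72 genes were still below 0. Those 2 libraries had the highest subunit medians, so leaving them out shrinks the median change by construction. With the long-minus-short score as a covariate the median was -0.01, with 48 genes below 0 and 34 above, and none passed, where 0.0443% of all did. The score had a Pearson r of -0.98 with the subunit median. It also differed between the vehicle groups, with a mean of 0.24 in knockout and -0.46 in control hearts. A fit with the score therefore takes out most of the common change of the set by construction, whatever its source. With that score in the fit, Cox5b had a change of -0.31 (SE 0.10, adjusted p = 0.317), Sdha had 0.03 (SE 0.08, adjusted p = 0.949) and Ndufs1 0.05 (SE 0.10, adjusted p = 0.907).

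Every sequencing pool held libraries of each group, so the change was also taken within pools. The median difference over the 82 genes, knockout minus control under vehicle, was -0.43 in pool 1 (1 against 2 libraries), -0.60 in pool 2 (1 against 1), -0.90 in pool 3 (2 against 1) and 0.01 in pool 4 (1 against 1). The difference in the long-minus-short score, knockout minus control, was 0.77, 0.63, 1.37 and 0.07 in the same pools. Pool 4 had the smallest difference in both, while pool 1 had a larger score difference than pool 2 but a smaller difference in the subunits. With 1 or 2 libraries per group in a pool, a relation between the 2 was not tested. Within pools Sdha was higher in knockout hearts in all 4, by 0.58, 0.43, 0.83 and 0.20 on the log2 scale, and Cox5b lower in all 4, by -0.64, -1.06, -1.13 and -0.32.

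Under rapamycin the loss of Acsl1 was set against control hearts that also received the drug. The subunits had a median log2 change of -0.12 (-0.02 over all tested genes), and 79 of 82 had a fitted change below 0, where 55.7% of all tested genes did. None of the 82 passed an adjusted p of 0.05, where 0.0221% of all did, and none had an unadjusted p under 0.05, where 2.97% of all did. The medians by complex ran from -0.16 in complex III to -0.09 in complex II. Cox4i2, Cox7a1 and Ndufb6, a membrane-arm subunit of complex I, had the most negative changes: -0.32 (SE 0.22, adjusted p = 0.9996), -0.29 (SE 0.26, adjusted p = 0.9996) and -0.25 (SE 0.25, adjusted p = 0.9996). The most positive were Cox7a2l with 0.08, Ndufa10 with 0.08 and Cox4nb with 0.03.

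Cox7a1, the muscle form of subunit 7a, was at 26296, 17241, 26512, 29742 and 20825 in knockout hearts under rapamycin, against 34174, 38748, 26086, 17268 and 34443 in control hearts under rapamycin. Control rapamycin library 4 was the second lowest of the 10, and the other 4 control libraries reached from inside the knockout range to above it. Sdha, at 40577, 41884, 31655, 30665 and 45978 in knockout hearts and 38533, 33227, 43227, 50804 and 38018 in control hearts under rapamycin, had a change of -0.10 (SE 0.22, adjusted p = 0.9996). Its interaction of genotype and drug, -0.62 (SE 0.30, adjusted p = 0.523), did not pass the test. The median difference over the 82 genes within pools was -0.48, 0.08, 0.06 and -0.20, with both signs.

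The interaction, the change with Acsl1 loss under rapamycin minus that under vehicle, tests whether the changes differ. It had a median of 0.32 over the 82 genes (-0.09 over all tested genes), with 74 above 0, where 41.4% of all were above 0. None passed an adjusted p of 0.05, as was the case for all 13548 genes (0%), and 2 had an unadjusted p under 0.05, where 8.30% of all did. These were Cox5b with 0.74 (SE 0.29, adjusted p = 0.523) and Ndufs1 with -0.64 (SE 0.28, adjusted p = 0.523). Next to them at the ends stood Atp5o with 0.72 and Ndufb4 with 0.67 on the positive side, and Sdha with -0.62 and Ndufb3 with -0.23 on the negative side. Without control vehicle libraries 1 and 3 the median was 0.02, with 47 of 82 above 0. No gene of the set thus had a detectable difference between the arms. Those 2 libraries had the highest subunit medians, so leaving them out lowers the interaction median by construction and does not tell its source.

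**Figure D4:**
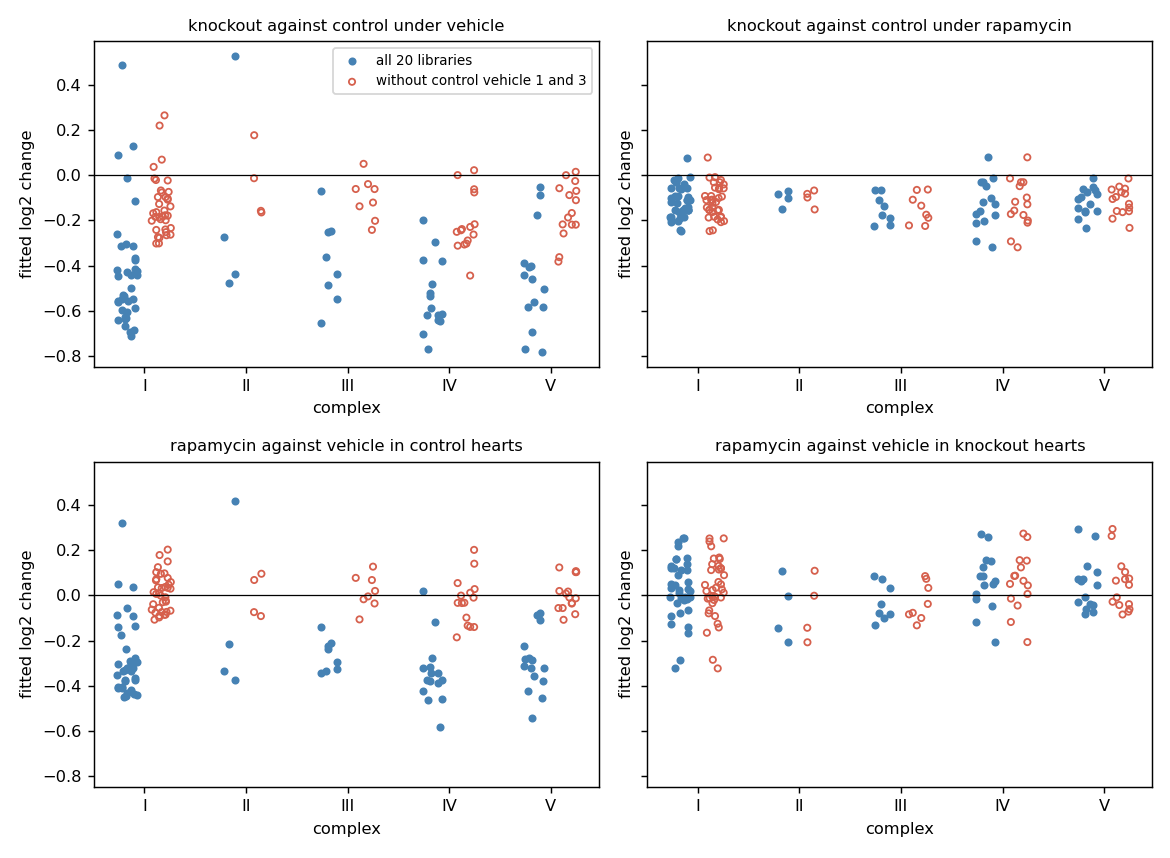
Fitted log2 change of each subunit, by complex, in the 4 comparisons of groups, from all 20 libraries (filled) and without control vehicle libraries 1 and 3 (open). With the 2 libraries left out the median over the 82 genes moves to -0.16 for knockout against control under vehicle and to 0.00 for rapamycin against vehicle in control hearts, while the comparisons that use no control vehicle library keep -0.12 and 0.03.

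Rapamycin was compared with vehicle in control hearts, a comparison that shares the control vehicle libraries with the first one. The subunits had a median change of -0.32 (0.07 over all tested genes), and 76 of 82 were below 0, where 41.4% of all were. None passed an adjusted p of 0.05, nor did any gene tested (0%), and 6 were lower at an unadjusted p under 0.05, where 4.32% of all were. Cox8b had the most negative change, -0.58 (SE 0.25, adjusted p = 0.33). It was at 18617, 23165, 15244, 11364 and 19117 in control hearts under rapamycin, against 37000.0, 21787, 39842, 19842 and 16776 in control hearts under vehicle. The 2 highest vehicle values belong to libraries 1 and 3, and the remaining 3 lay inside the rapamycin range. Atp5g1, another c ring gene, followed with -0.54 (SE 0.27, adjusted p = 0.335) and Cox5b with -0.46, while Sdha had 0.42 (SE 0.22, adjusted p = 0.34) and Ndufs1 0.32 (SE 0.20, adjusted p = 0.392). Without control vehicle libraries 1 and 3 the median over the 82 genes was 0.00, with 41 genes below 0 and 41 above.

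Rapamycin was then compared with vehicle in knockout hearts, with the spread estimated over all 20 libraries. The median change of the subunits was 0.03 (-0.02 over all tested genes), with 47 of 82 above 0, where 46.6% of all tested genes were. None passed an adjusted p of 0.05, where 0.00738% of all did, and none had an unadjusted p under 0.05, where 5.71% of all did. The most negative changes were those of Ndufs1 with -0.32 (SE 0.20, adjusted p = 0.947), Ndufb3, a membrane-arm subunit of complex I, with -0.28 (SE 0.16, adjusted p = 0.926) and Atp5s with -0.22. Atp5e with 0.29, Cox5b with 0.27 and Atp5o with 0.26 had the most positive. Within pools the median difference was -0.30, 0.59, 0.05 and 0.01.

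With the long-minus-short score in the fit, 1 gene of the set passed in knockout hearts. Ndufb3 was at 3605, 2661, 3084, 4048 and 3214 in knockout hearts under rapamycin, against 4241, 3566, 3628, 3588 and 5247 in knockout hearts under vehicle, with overlap. Its change with the score was -0.31 (SE 0.08, adjusted p = 0.0385), in a fit where 1.73% of all tested genes passed. Under the same covariate the interaction of Ndufb3 was -0.52 (SE 0.11, adjusted p = 0.475).

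Averaged over drug, the change with Acsl1 loss had a median of -0.30 over the 82 genes (0.02 over all tested genes), with 77 below 0, where 46.7% of all were. None passed an adjusted p of 0.05, where 0.443% of all did, and 35 were lower at an unadjusted p under 0.05, where 8.73% of all were. The smallest adjusted p was 0.192, for Cox4i2, which had a change of -0.47. Cox7a1 with -0.50 and Atp5e with -0.48 were the most negative, and Sdha with 0.21, Ndufs1 with 0.16 and Ndufa10 with 0.10 the most positive. Without control vehicle libraries 1 and 3 the median was -0.14. Averaged over genotype, rapamycin gave a median of -0.14 (0.04 over all tested genes), with 75 below 0, where 41.5% of all were. None passed, where 0.125% of all did, and at an unadjusted p under 0.05, 4 were lower, where 4.64% of all were, and 1 was higher, where 4.60% were. Cox8a with -0.33, Atp5g1 with -0.28 and Cox8b with -0.27 were the most negative, and Cox4nb with 0.14 and Sdha with 0.10 the most positive. Without the same 2 libraries the median was 0.02.

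Cox7a2l, a relative of subunit 7a known for joining complexes III and IV into supercomplexes, passed in that last comparison once the score was in the fit. It was at 12351, 8763, 11796, 12333 and 8102 in knockout and 11108, 13206, 9526, 7066 and 9842 in control hearts under rapamycin. Under vehicle it was at 9946, 7026, 7354, 8447 and 12031 in knockout and 13959.8, 9257, 16153, 9183 and 7615 in control hearts. The ranges overlap widely, and without the score the change was 0.07 (SE 0.15, adjusted p = 0.878). With the score it was 0.23 (SE 0.05, adjusted p = 0.0211), in a fit where 2.35% of all tested genes passed.

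The ratio of 2 subunit forms within a library does not depend on the scaling of that library. For that reason 6 pairs were compared in the 4 comparisons of groups, with exact two-sided permutation tests over 5 against 5 libraries, for which the smallest possible p is 0.00794. A ratio can still move with the long-minus-short score of a library, and the part of the score in these ratios was not tested. None of the 24 tests passed Benjamini-Hochberg adjustment over the 24, with a smallest adjusted p of 0.190, and the groups overlapped in all. The muscle forms prevailed throughout: Cox6a2 over Cox6a1 by 19.5 to 30.5 times, Cox8b over Cox8a by 3.81 to 6.01 times and Cox7a1 over Cox7a2 by 1.67 to 2.68 times, as ratios of values not set per length.

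The ratio of Cox8b to Cox8a was 4.52, 3.81, 4.14, 4.28 and 4.61 in knockout hearts under vehicle, against 5.84, 5.22, 5.27, 4.58 and 4.79 in control hearts under vehicle. On the log2 scale the means were 2.09 ± 0.11 in knockout hearts and 2.36 ± 0.14 in control hearts (SD, n = 5 each), a difference of -0.27 (exact permutation p = 0.0159, adjusted 0.190). In this pair 4 of the 5 control libraries stood above the highest knockout library, and the fifth lay inside the knockout range. In knockout hearts the ratio was 6.01, 4.7, 5.54, 5.07 and 4.3 under rapamycin, and the difference from vehicle was 0.26 (exact permutation p = 0.0317, adjusted 0.190).

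Atp5g1, Atp5g2 and Atp5g3 encode the same mature c subunit of the ATP synthase ring behind different import sequences, and how the authors' counting divided reads that fit more than 1 of them was not tested. The ratio of Atp5g1 to Atp5g3 was 0.559, 0.45, 0.443, 0.472 and 0.521 in knockout hearts under vehicle, against 0.645, 0.587, 0.694, 0.532 and 0.559 in control hearts under vehicle, a log2 difference of -0.30 (exact permutation p = 0.0159, adjusted 0.190). Control libraries 1 and 3, with scores of -1.15 and -1.34, had the highest ratios. The lowest knockout ratios, 0.45 and 0.443, belonged to libraries 2 and 3, with scores of 0.64 and 0.55. The ratio of Atp5g2 to Atp5g3 had a log2 difference of 0.09 for rapamycin against vehicle in control hearts (exact permutation p = 0.0238, adjusted 0.190). For Cox6a2 over Cox6a1 the largest difference was 0.24, for rapamycin against vehicle in knockout hearts (exact permutation p = 0.0476, adjusted 0.222).

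**Figure D5:**
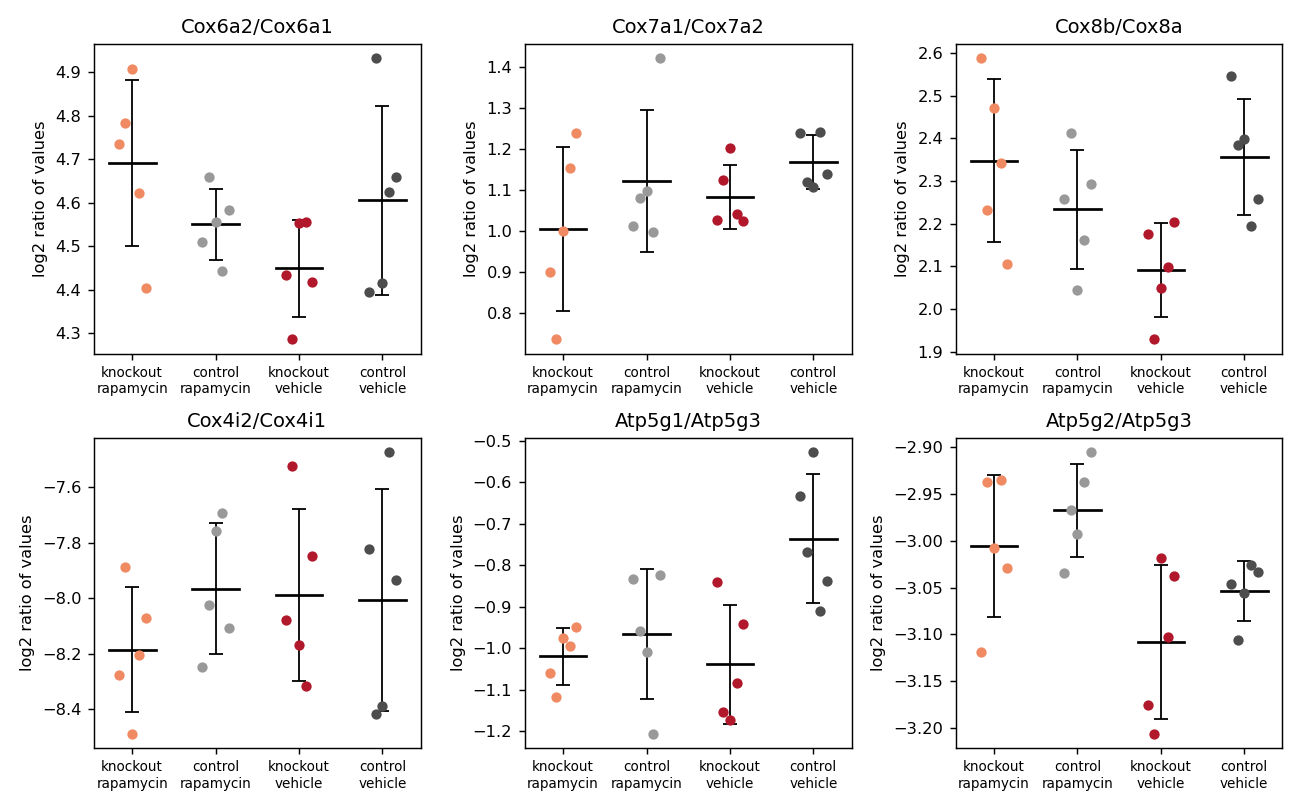
Log2 ratio of the values of 2 subunit forms in each library, for 6 pairs, by group, with group mean and SD (n = 5 each); the axes do not start at 0. For Cox8b/Cox8a the mean is 2.09 in knockout and 2.36 in control hearts under vehicle with overlapping points, and 1 control rapamycin library stands at 1.42 for Cox7a1/Cox7a2, above the other 4 of its group.

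Genes that build, feed or regulate the complexes were read from lists of the pathway. Under vehicle, knockout against control, none of the 9 complex I assembly factors tested passed an adjusted p of 0.05 and their median change was -0.03. None of 6 factors for complexes II and III passed (median -0.13), none of 11 for complex IV (0.05), none of 4 for complex V, its inhibitor Atpif1 included (-0.21), none of 16 electron carriers and coenzyme Q enzymes (-0.15) and none of 14 regulators of mitochondrial biogenesis (0.09). These medians lie nearer to that of all tested genes (0.07) than the subunits do. The transcript lengths of the lists were not matched to those of the subunits, and Cyc1 among the carriers is itself a complex III subunit. The assembly factor with the largest change was Lrpprc, which stabilises mitochondrial messenger RNA. It averaged 5177 in knockout hearts under vehicle and 2959.7 in control hearts under vehicle, a log2 change of 0.86 (adjusted p = 0.106).

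Cytochrome c1 (Cyc1) is a complex III subunit that was listed with the electron carriers. It averaged 32303 in knockout and 42445 in control hearts under vehicle (log2 change -0.36, adjusted p = 0.149). Cytochrome c (Cycs) averaged 33054 in knockout and 40915 in control hearts under vehicle (-0.27, adjusted p = 0.366). Etfdh, which passes electrons from fatty acid oxidation to ubiquinone, averaged 18895 in knockout and 14176 in control hearts (0.40, adjusted p = 0.0974). Among the regulators, Ppargc1a, the PGC-1α coactivator, averaged 3985 in knockout and 2750.0 in control hearts (0.55, adjusted p = 0.193) and Esrra, an estrogen-related receptor, 4694 in knockout and 6407 in control hearts (-0.40, adjusted p = 0.126). Nrf1 averaged 309.9 in knockout and 299.7 in control hearts, a change of 0.05 (adjusted p = 0.742). In the same fits none of these lists had a member that passed in the other comparisons of groups or in the interaction. Averaged over genotype, Atpaf1, which assembles the head of ATP synthase, passed as lower with rapamycin: it averaged 1803 ± 80.4 in knockout and 1773 ± 105 in control hearts under rapamycin, against 2296 ± 133 in knockout and 2166 ± 253 in control hearts under vehicle (SD, n = 5 each). Its log2 change was -0.32 (adjusted p = 0.0440), in a comparison where 0.125% of all tested genes passed. The call was lost with the sequencing pool as a term (-0.30, adjusted p = 0.104), where no gene of the 13548 passed, with median-ratio rescaling (-0.34, adjusted p = 0.0569) and without control vehicle libraries 1 and 3 (-0.26, adjusted p = 0.113). It was also lost in 18 of the 20 fits that left out 1 library each, with a change of -0.33 to -0.28 and an adjusted p of 0.0361 to 0.0880 over those fits. With the long-minus-short score in the fit it was -0.30 (adjusted p = 0.00400).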

How the data were processed

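Poly(A) RNA of 20 mouse ventricle samples was sequenced in 4 pools, each with libraries of all 4 groups. The deposited values are a normalized signal per gene: the authors' RSEM estimates scaled to an upper quartile near 1000, per the submitters' processing notes and the values themselves (996.6 to 1000.0). Those notes name mm9, RSEM, SAMtools and Picard 1.64, and the aligner is not given in the sources used here. Each library held 14592 to 15605 genes above 0. Depth was implied from the smallest value steps, at which 86.6% to 88.2% of low values were whole multiples within 0.05, so it is approximate.

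Values were tested as log2(value + 1), which understates changes of low genes, with limma 3.58.1 in R 4.3.3 (trend, 1 mean per group, 20 libraries, 7 comparisons) over 13548 genes at 10 or more in at least 5 libraries, with Benjamini-Hochberg adjustment at 0.05. The fit was tested on simulated data. Isoform ratios were tested exactly with scipy 1.17.1. Transcript lengths and promoters came from GENCODE and RefSeq on GRCm38. Since the files use mm9, lengths were matched by Entrez gene number and promoters by name. A length is the median over the gene's transcripts, limited to those with a RefSeq match where there were any. The genes named were 10 core subunits, the 3 most negative and most positive changes per comparison, genes that passed, isoform pairs, the highest and lowest levels, genes that match by name alone or lie next to the limit on the mean, and Acsl1; others, Ndufb4 among them, were named after their values were seen. Reads shared with near-identical copies or pseudogenes make single subunits uncertain. Alternatives covered the pseudocount, filters, scaling, pool, replicate number, transcript-length score, library weights and libraries left out. The members and lists were chosen with earlier results of these data known. The values of 1 member are not reported here.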

Additional observations from a re-analysis of the deposited data

Results flagged for a closer look

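A single library stood apart from its group. The log2 ratio of Cox7a1 to Cox7a2, the muscle and widespread forms of complex IV subunit 7a, was 1.42 in control rapamycin library 5, against 1.00 to 1.10 in the other 4 control hearts under rapamycin. Its gap to the nearest of them, divided by the range of the group, exceeded Dixon's 95% critical value for 5 samples. This was 1 of 76 groups examined, and chance alone passes about 5% of groups.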

How the results depend on the processing

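No member passed an adjusted p of 0.05 in any comparison with another pseudocount (0.5 or 10), no lower limit on values or one of 100 on the mean, scaling by quantiles or by median ratios, the pool as a term, robust fits with array weights, or a fit of only the groups compared. The most genes that passed in any of these, 131 of 13548, did so for knockout averaged over drug in the robust fits. Replicate numbers did not pair the samples (30 correlations of same-numbered deviations from -0.724 to 0.602, median 0.00858). A fit with the replicate number as a block called 0 members in each comparison, where at most 62 of all 13548 genes passed. With that block the change of Atpaf1 with rapamycin averaged over genotype had an adjusted p of 0.0662 (limma). With the long-minus-short score as a covariate the median over the 82 genes was -0.0142 for knockout against control under vehicle, 0.0269 for rapamycin against vehicle in control hearts and -0.0244 for the interaction. With that score 1 member passed for rapamycin in knockout hearts, where 1.73% of all tested genes did, and 1 for rapamycin averaged over genotype, where 2.35% did. Centring each library on the median of the members, an alternative chosen after seeing the data, gave 0.0295 under vehicle and -0.0588 for the interaction. Genes outside the set moved as well. There Atpaf1 had a change of -0.17 with rapamycin averaged over genotype (limma, adjusted p = 0.666). The cause of these moves was not tested beyond the construction of the covariate and the centring.

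Signs turned for Ndufa10 in knockout against control under vehicle (-0.00604 with the score, -0.0155 without control vehicle libraries 1 and 3). Averaged over drug, Sdha was at -0.0833 and Ndufs1 at -0.0922 with the score. Averaged over genotype, Sdha was at -0.0576 with the score, -0.00348 with robust array weights and -0.0698 without those 2 libraries. The log2 ratio Cox4i2/Cox4i1 was at -0.0441 for knockout under vehicle and -0.0227 for rapamycin in control hearts without them. Leaving out each library in turn, all genes called ran from 8 to 3089 of 13548 for knockout under vehicle. They ran from 21 to 150 for knockout averaged over drug and from 3 to 17 for rapamycin averaged over genotype, with at most 4 elsewhere. In the same fits, members called ran from 0 to 44 for knockout under vehicle and stayed at 0 in the other comparisons. The medians ran from -0.59 to -0.32 for knockout under vehicle, -0.24 to -0.05 for knockout under rapamycin, -0.44 to -0.18 for rapamycin in control hearts, -0.06 to 0.16 for rapamycin in knockout hearts, 0.19 to 0.46 for the interaction, -0.36 to -0.24 for knockout averaged and -0.19 to -0.07 for rapamycin averaged. Single values that crossed 0 were Cox7a2l (-0.0447 to 0.18) and Cox4nb (-0.000716 to 0.0603) for knockout under rapamycin, and the ratios Cox6a2/Cox6a1 (-0.11 to 0.0267) and Cox4i2/Cox4i1 (-0.0611 to 0.18) for rapamycin in control hearts, Cox4i2/Cox4i1 (-0.10 to 0.15) for knockout under vehicle and Atp5g1/Atp5g3 (-0.0145 to 0.0690) for rapamycin in knockout hearts.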
